A study of Mus musculus with 9 samples.

Results

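The 10 genes described here mark liver sinusoidal endothelial cells, the cells that line the hepatic capillaries. They are Stab1, Stab2, Lyve1, Clec4g, Oit3, Mrc1, Kdr, Pecam1, Vcam1 and Icam1, chosen by symbol from a deposited table of 55253 gene symbols, and all 10 were found. Expression was measured by 3′ mRNA sequencing of whole liver from 9 male C57Bl/6J mice. The WD+alcohol group (5 mice) was fed a Western diet and drank sweetened water with 10% alcohol over 23 weeks, starting at 10 weeks of age. The control group (4 mice) had chow and tap water over the same 23 weeks, also from 10 weeks of age. Effects of the diet, the alcohol and the sweetener cannot be told apart in this design. The labels give no transgene, and nothing in them separates endothelial cells from the other cells of the organ, so every value is a level in whole-liver RNA. In such bulk samples, fewer cells of a type and less RNA per cell cannot be told apart.

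Sinusoidal endothelial cells form a fenestrated lining without a continuous basement membrane, through which plasma reaches the hepatocytes. They are known as the main scavenger endothelium of the body, and take up hyaluronan, denatured collagen, glycoproteins and small immune complexes from blood through stabilins, the mannose receptor and Fc receptors. In inflamed liver they carry adhesion molecules that bind leukocyte integrins, and in chronic disease they can lose their fenestrae and acquire features of ordinary capillaries.

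All 10 genes had reads in all 9 libraries, from 16 reads (Lyve1 in control 1) to 353 reads (Vcam1 in WD+alcohol 4), and all passed the filter of a mean of at least 1 CPM. Depth was 3635860 to 6643645 reads in genes for the WD+alcohol libraries and 5050763 to 5910285 for the controls, so 1 read was worth 0.152 to 0.27 CPM. CPM here are read counts relative to library size, scaled by TMM, a correction for differences in RNA composition between libraries. As 3′ libraries give about 1 fragment per transcript, CPM does not depend on transcript length. Stab1, Stab2, Clec4g, Vcam1 and Icam1 overlap a gene on the opposite strand, whose reads would be mixed with theirs if the counting ignored strand.

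Vcam1 rose with Western diet plus alcohol, and it was the only one of the 10 markers to pass the test over all genes (limma-trend, adjusted p under 0.05). Its mean was 2.14 times that of the controls. None of the 10 fell, and at an unadjusted p under 0.05 there were 6 higher and 0 lower; edgeR and DESeq2 also called 0 lower. Over all 14759 genes tested, 2.29% were called, 1.61% higher and 0.678% lower, and 7.41% were higher and 4.77% lower at an unadjusted p under 0.05. Log2 fold changes were above 0 for 9 of the 10 markers, against 49.9% of all genes tested, and their median was 0.39 against -0.001 for all genes. The set therefore held more positive values than the table as a whole, while 9 of its 10 genes did not pass the threshold. The exception in sign was Kdr.

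**Figure D1:**
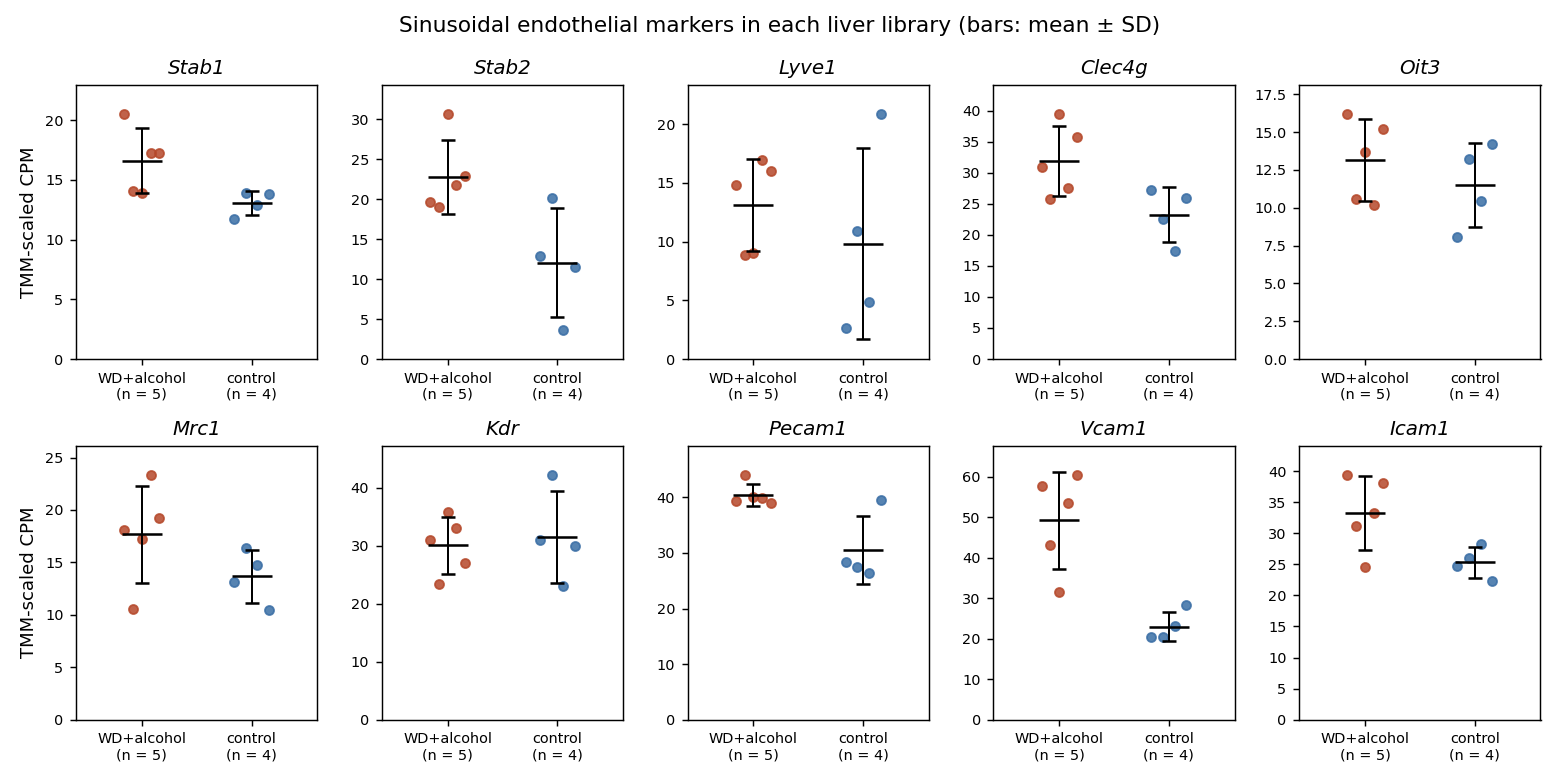
Level of each marker in each library, in TMM-scaled CPM on a linear axis from 0, with WD+alcohol libraries (n = 5) in red and controls (n = 4) in blue. Black bars give the mean and SD. Vcam1 and Stab1 are the genes whose WD+alcohol points all lie above the controls, and Stab2 and Lyve1 have widely spread controls.

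Vcam1 and Icam1 encode adhesion molecules of the immunoglobulin superfamily that bind integrins on leukocytes. Vcam1 had 57.7, 43.1, 31.5, 53.5 and 60.5 CPM in the WD+alcohol libraries, against 20.4, 20.4, 23.1 and 28.2 CPM in the controls. The groups did not overlap, and WD+alcohol 3 lay closest to the controls. The log2 fold change of Vcam1 was 1.04 ± 0.17 (SE; 95% interval 0.67 to 1.41; limma-trend adjusted p = 0.00518). Without any 1 of the 9 libraries its adjusted p stayed between 5.32e-04 and 0.0232. Icam1 had 39.3, 31.2, 24.6, 33.2 and 38.0 CPM with Western diet plus alcohol, against 24.7, 26.1, 28.3 and 22.4 CPM in the controls. Its groups overlapped through WD+alcohol 3, which lay below 3 of the controls. The log2 fold change of Icam1 was 0.36 ± 0.13 (SE; 95% interval 0.08 to 0.65; adjusted p = 0.229, limma-trend), and the threshold was not passed. Both genes had their lowest value of the WD+alcohol group in the same library. Vcam1 is also made by macrophages and Icam1 by many cell types, and Kupffer cell markers moved with the group, as given further on.

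The integrins that bind these molecules were followed as a list of 12 leukocyte integrin and selectin ligand genes. Of its 11 tested members 2 rose, Itga9 and Itgal, and 0 fell (0 lower at an unadjusted p under 0.05 and with edgeR or DESeq2), with a median log2 fold change of 0.17. Itgal, the alpha chain of LFA-1, a receptor of ICAM-1, had 9.97, 7.49, 9.38, 11.1 and 15.6 CPM, against 5.93, 3.99, 4.52 and 4.36 CPM in the controls. The groups did not overlap, and the log2 fold change of Itgal was 1.01 ± 0.19 (SE; limma-trend adjusted p = 0.0123). Itgb2, its beta chain, had a mean of 31.8 ± 4.66 CPM in WD+alcohol livers (SD, n = 5), against 25.5 ± 4.17 CPM in controls (SD, n = 4), and was not called (adjusted p = 0.350, limma-trend). Itga9, an integrin alpha chain reported to bind VCAM-1 among other ligands, averaged 11.4 ± 1.20 CPM against 4.51 ± 0.72 CPM, with a log2 fold change of 1.17 ± 0.15 (SE). It passed the test at an adjusted p of 7.04e-04 (limma-trend). The chains of VLA-4, the main leukocyte receptor of VCAM-1, differed little in mean. Itga4 averaged 31.3 ± 3.25 against 32.1 ± 0.86 CPM, with a 95% interval of the log2 fold change from -0.24 to 0.16. Itgb1, which many cell types express, averaged 311 ± 15.4 against 316 ± 14.0 CPM, with an interval from -0.17 to 0.12. The estimates of Itga4 and Itgb1 were just below 0, and above 0 after rescaling to a common total (0.01 and 0.03), as was that of Itgb1 with quantile normalization (0.004).

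Stab1 and Stab2 encode the paralogous scavenger receptors stabilin-1 and stabilin-2. Stab2, the main hyaluronan clearance receptor and largely restricted to sinusoidal endothelium in liver, had 19.7, 18.9, 30.6, 21.8 and 22.8 CPM with Western diet plus alcohol. The controls had 12.9, 20.2, 3.65 and 11.6 CPM of Stab2, and control 2 lay inside the range of the WD+alcohol group. Its mean log2 fold change, 1.04 ± 0.32 (SE; 95% interval 0.34 to 1.74), equalled that of Vcam1 at 2 decimals, but its larger SE left it short of the threshold (limma-trend adjusted p = 0.144). Control 3 held 21 reads of Stab2, against 61 to 96 in the other controls. Without control 3 the log2 fold change of Stab2 was 0.60 (adjusted p = 0.169), and without control 2 it was 1.33, past the threshold (adjusted p = 0.0398, limma-trend). Stab1, which macrophages also express, had 20.5, 14.1, 13.9, 17.3 and 17.2 CPM, against 11.7, 13.9, 12.9 and 13.8 CPM in the controls. All 5 WD+alcohol values of Stab1 lay above all 4 controls, by a margin as small as 13.89 against 13.87 CPM, and the log2 fold change was 0.31 ± 0.13 (SE; adjusted p = 0.341, limma-trend). Vcam1 and Stab1 were thus the 2 markers whose WD+alcohol values all lay above the controls, a pattern shown by 3.34% of all genes tested.

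Lyve1 encodes a hyaluronan receptor of sinusoidal and lymphatic endothelium, and Mrc1 the macrophage mannose receptor, which sinusoidal cells use for glycoprotein uptake. Lyve1 had 14.8, 8.86, 9.01, 17.0 and 16.01 CPM with Western diet plus alcohol, against 2.64, 10.9, 4.87 and 20.8 CPM in the controls. It was the most variable marker, with both the lowest and the highest of the 9 values among the controls. Its log2 fold change was 0.66 ± 0.41 (SE; 95% interval -0.22 to 1.55; adjusted p = 0.577, limma-trend), and it was 0.25 without control 1 and 1.11 without control 4. Mrc1 had 18.1, 10.5, 17.3, 23.3 and 19.2 CPM, against 13.2, 16.4, 14.8 and 10.4 CPM in the controls. WD+alcohol 2 fell among the controls, and the log2 fold change of Mrc1 was 0.32 ± 0.19 (SE; adjusted p = 0.561, limma-trend). It was 0.49 without WD+alcohol 2 and 0.21 without control 4.

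Clec4g encodes LSECtin, a C-type lectin of sinusoidal endothelium, and Oit3 a secreted protein with a zona pellucida domain that serves as a sinusoidal marker in mouse. Clec4g had 31.0, 25.8, 39.4, 27.6 and 35.8 CPM, against 27.2, 22.5, 17.4 and 25.96 CPM in the controls. The overlap rested on WD+alcohol 2, below controls 1 and 4. The log2 fold change of Clec4g was 0.44 ± 0.15 (SE; 95% interval 0.12 to 0.77; adjusted p = 0.187, limma-trend). Oit3 had 16.2, 10.5, 13.7, 10.2 and 15.2 CPM, against 8.07, 13.2, 10.4 and 14.2 CPM, and the groups were interleaved. Its log2 fold change was 0.19 ± 0.18 (SE; adjusted p = 0.768, limma-trend), and it was 0.04 without control 1, 0.11 without WD+alcohol 1 and 0.29 without control 4.

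Kdr, the receptor VEGFR2, and Pecam1, the junction protein CD31, mark endothelium in general. Kdr had 31.0, 23.4, 35.8, 33.2 and 27.0 CPM with Western diet plus alcohol, against 31.0, 42.2, 23.1 and 29.9 CPM in the controls. The 5 values lay within the range of the 4 controls, and the log2 fold change was -0.05 ± 0.16 (SE; 95% interval -0.40 to 0.29; adjusted p = 0.946, limma-trend), with an estimate above 0 after rescaling to a common total (0.002), without WD+alcohol 2 (0.03) and without control 2 (0.10). Pecam1 was tight in the WD+alcohol libraries, at 39.3, 44.0, 40.0, 39.8 and 39.0 CPM, and stood at 28.3, 27.5, 26.4 and 39.6 CPM in the controls. Control 4 lay within the WD+alcohol range, and the other 3 controls lay well below it. The log2 fold change of Pecam1 was 0.41 ± 0.11 (SE; 95% interval 0.17 to 0.66; adjusted p = 0.0848, limma-trend). It passed when each library was rescaled to a common total (adjusted p = 0.04499) and without control 4 (adjusted p = 0.00776).

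**Figure D2:**
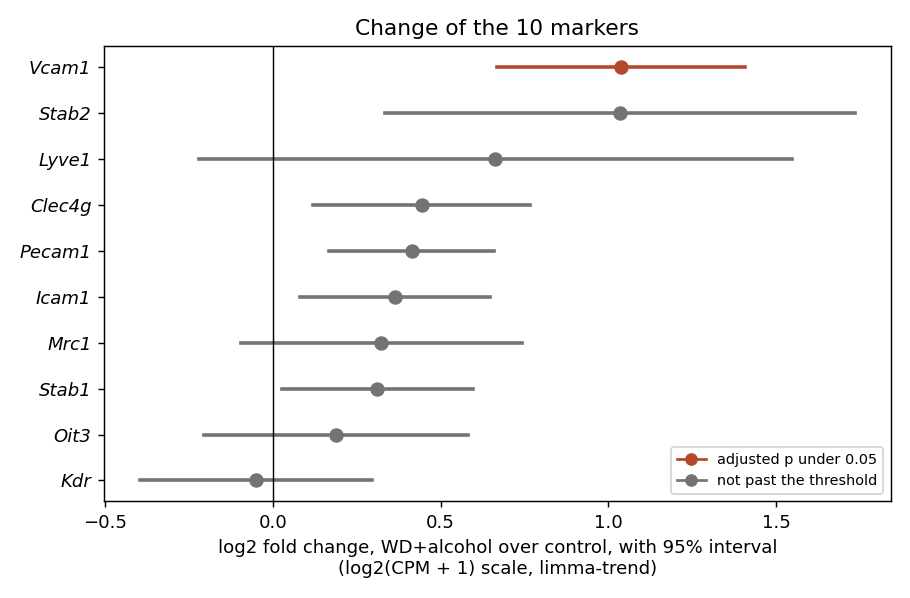
Log2 fold change of each marker (WD+alcohol over control, on the log2(CPM + 1) scale) with its 95% interval from limma-trend. Vcam1, in red, is past an adjusted p of 0.05; Stab2 has nearly the same estimate with a wider interval, and Kdr lies at 0.

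Promoter sequences were looked up for the markers because Vcam1 and Icam1 are known targets of NF-kB, and endothelial genes of ETS and GATA factors. RefSeq promoters (250 bases before to 50 after the start, build GRCm38.p6, not the build of the expression data) were at hand for 6 of the 10 genes: Stab1, Stab2, Clec4g, Mrc1, Kdr and Icam1. Lyve1, Oit3, Pecam1 and Vcam1 had no entry. Both strands were searched for the palindromic NF-kB form GGAANTTCC, the classical NF-kB consensus, the ETS motif CAGGAAG and the GATA motif AGATAA. Among all 32851 promoters of the table these occur in 0.928%, 1.63%, 13.3% and 11.2%. Icam1 held GGAAATTCC, with its first base 153 bases before the start, and is shown as the adhesion gene of the set with an entry. Stab1 held CAGGAAG, 117 bases before the start, while the promoter of its paralog Stab2 held none of the 4 motifs; the pair is shown for comparison. Among the others, Mrc1 held the ETS motif on the opposite strand, 210 bases before the start, and Clec4g and Kdr held none of the 4. Other forms of these motifs, including broader NF-kB forms, were not searched. Capitals mark the matches, which are matches of letters only. The promoters lie at chr9:21015690-21015989 (plus strand) for Icam1, chr14:31168592-31168891 (minus strand) for Stab1 and chr10:87007893-87008192 (minus strand) for Stab2, and each is written 5′ to 3′ along its gene.
Icam1: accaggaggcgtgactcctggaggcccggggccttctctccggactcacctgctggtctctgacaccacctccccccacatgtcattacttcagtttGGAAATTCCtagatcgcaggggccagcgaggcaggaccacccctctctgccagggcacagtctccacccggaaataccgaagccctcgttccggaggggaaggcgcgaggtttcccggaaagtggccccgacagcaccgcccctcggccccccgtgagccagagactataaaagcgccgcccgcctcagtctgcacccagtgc
Stab1: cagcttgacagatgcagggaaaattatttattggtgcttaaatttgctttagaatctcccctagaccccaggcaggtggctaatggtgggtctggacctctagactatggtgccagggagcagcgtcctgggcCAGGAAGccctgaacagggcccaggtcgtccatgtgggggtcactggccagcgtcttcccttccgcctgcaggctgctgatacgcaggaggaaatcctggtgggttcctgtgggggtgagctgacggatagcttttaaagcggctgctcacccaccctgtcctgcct
Stab2: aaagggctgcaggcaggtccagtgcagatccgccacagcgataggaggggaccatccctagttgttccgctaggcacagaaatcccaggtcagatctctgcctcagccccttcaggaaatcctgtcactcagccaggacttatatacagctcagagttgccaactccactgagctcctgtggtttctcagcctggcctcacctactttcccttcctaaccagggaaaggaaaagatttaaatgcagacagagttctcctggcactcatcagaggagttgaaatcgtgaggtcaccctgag

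Other endothelial genes were followed in further lists. Over all genes tested, 1.61% were called higher and 0.678% lower, with 7.41% higher and 4.77% lower at an unadjusted p under 0.05. At such shares a short list can hold 0 or 1 call without differing from the table as a whole. Of 19 tested further sinusoidal genes 1 rose, Fcgr2b, and 0 fell (median log2 fold change 0.17; 6 higher and 0 lower at an unadjusted p under 0.05). Fcgr2b, an inhibitory Fc receptor that takes up immune complexes in sinusoidal endothelium and is also found on B cells and macrophages, had 30.7, 23.5, 33.0, 30.4 and 32.6 CPM, against 23.1, 18.1, 15.99 and 18.9 CPM in the controls. The groups were separated by a narrow margin, 23.5 against 23.1 CPM, and the log2 fold change of Fcgr2b was 0.64 ± 0.13 (SE; limma-trend adjusted p = 0.0176). The call ended without WD+alcohol 5 (adjusted p = 0.0577) or without control 3 (adjusted p = 0.05444). Clec1b, the lectin CLEC-2 of platelets and sinusoidal endothelium, had a mean of 8.90 ± 3.37 CPM in WD+alcohol livers, against 4.89 ± 1.33 CPM in controls, and was not called (adjusted p = 0.253, limma-trend). In the list as a whole 12 log2 fold changes were above 0 and 7 below. Abundant genes lay on both sides of 0, and 3 of them were below. Dnase1l3, a secreted DNase, averaged 58.5 ± 7.59 CPM in WD+alcohol livers, against 64.4 ± 5.65 CPM in controls (log2 fold change -0.14). Ehd3, an endocytic trafficking protein, averaged 48.4 ± 9.75 against 58.3 ± 15.02 CPM (-0.25), and Plpp3, a lipid phosphatase, 121 ± 15.5 against 141 ± 27.02 CPM (-0.21). These 3 were not called (limma-trend adjusted p 0.542 to 0.656). Maf and Aqp1, also abundant, lay above 0. Maf averaged 145 ± 14.8 against 120 ± 14.6 CPM (log2 fold change 0.28) and Aqp1 69.0 ± 13.5 against 59.0 ± 11.7 CPM (0.22). Neither was called (limma-trend adjusted p 0.211 and 0.631).

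Of 20 pan-endothelial genes limma-trend called 0, as did edgeR and DESeq2, with 2 higher and 0 lower at an unadjusted p under 0.05. Their median log2 fold change was 0.15, and 15 of 20 values were above 0. Cdh5, the junction protein VE-cadherin, averaged 10.5 ± 3.04 against 6.68 ± 2.32 CPM (adjusted p = 0.280, limma-trend), and Ptprb, an endothelial phosphatase and the most abundant gene of the list, 29.2 ± 4.69 against 32.1 ± 5.28 CPM (adjusted p = 0.779). Genes of capillarised, venous and arterial endothelium gave 0 calls among 16 tested with limma-trend, edgeR and DESeq2 (2 higher and 0 lower at an unadjusted p under 0.05), with a median of 0.02. Of the log2 fold changes in this list 8 were above 0, with Vwf and Col4a1 among them, and 8 were below. Vwf, von Willebrand factor, which is low in healthy sinusoids, averaged 7.61 ± 1.74 against 4.25 ± 1.001 CPM. Its WD+alcohol values all lay above the controls, a pattern shown by 3.34% of all genes tested, and its adjusted p was 0.0881 (limma-trend). Col4a1, a basement membrane collagen that stellate cells also make, averaged 180 ± 17.1 against 158 ± 20.8 CPM and was not called (adjusted p = 0.484, limma-trend).

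The ligands and receptors of the VEGF pathway gave 0 calls among 9 tested, with 0 at an unadjusted p under 0.05 and 0 with edgeR or DESeq2. Their log2 fold changes were above 0 for 4 genes and below 0 for 5, with a median of -0.03. Vegfa, Flt1 and Nrp2 were among those below 0. Vegfa, the ligand of Kdr, averaged 61.7 ± 8.44 against 72.3 ± 10.1 CPM (95% interval of the log2 fold change -0.48 to 0.03), the receptor gene Flt1 16.2 ± 1.03 against 18.1 ± 2.20 CPM (-0.39 to 0.09) and the coreceptor gene Nrp2 96.3 ± 4.18 against 98.55 ± 5.83 CPM (-0.18 to 0.12; estimate above 0, at 0.02, with all libraries rescaled to one total). Wnt, BMP and Hgf signals of endothelium gave 0 calls among 7 tested (0 at an unadjusted p under 0.05, 0 with edgeR or DESeq2). Rspo3, a Wnt enhancer of central vein endothelium, averaged 25.4 ± 4.19 against 30.4 ± 3.59 CPM (adjusted p = 0.445, limma-trend). Hyaluronan, the ligand of Stab2 and Lyve1, was followed through a list of synthesis and turnover genes that also holds other receptors. This list gave 0 calls among 8 tested (1 higher and 0 lower at an unadjusted p under 0.05, 0 with edgeR or DESeq2). Cd44, a hyaluronan receptor of many cell types, averaged 226 ± 20.8 against 220.2 ± 23.8 CPM (adjusted p = 0.930, limma-trend). The lists share Kdr, Flt1, Flt4, Bmp2 and Dll4, and the stellate and lymphatic lists given further on share Reln, so their counts are not separate.

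**Figure D3:**
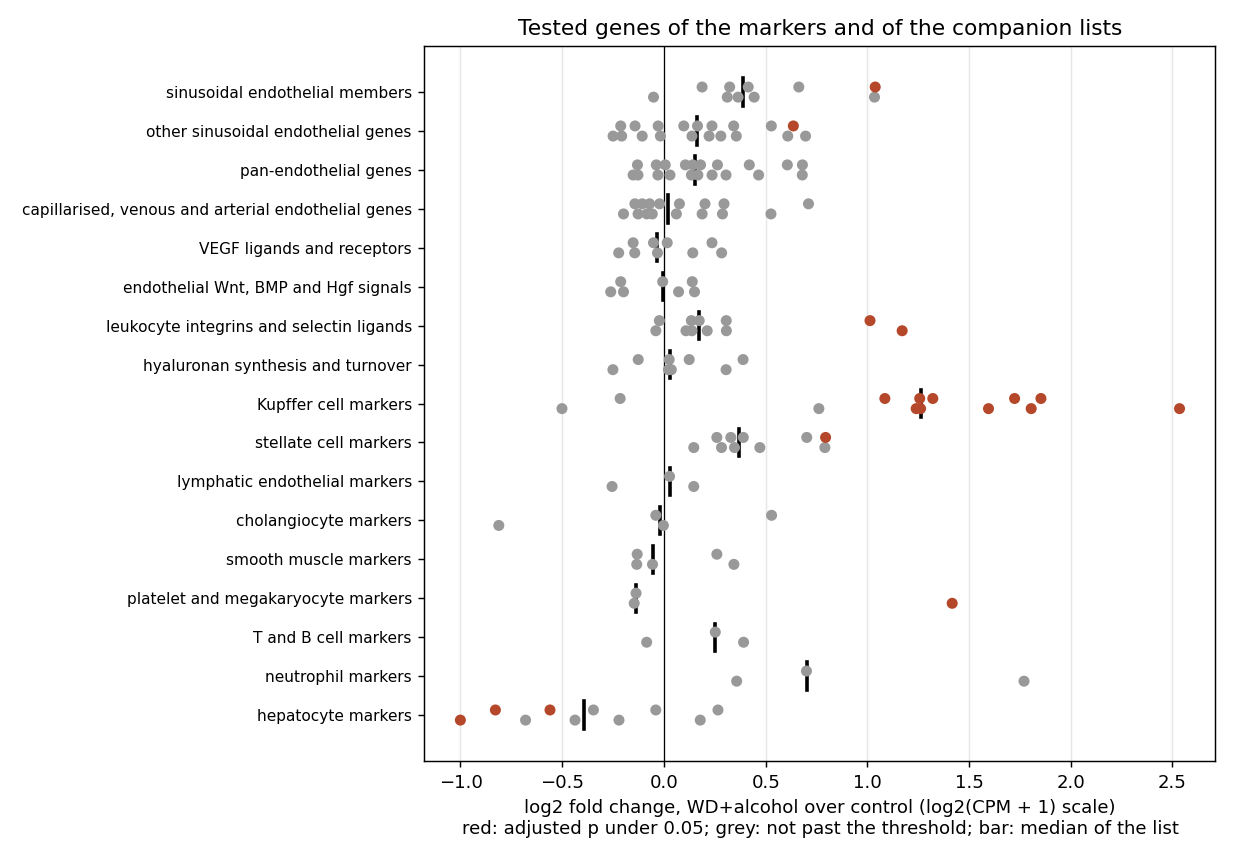
Log2 fold change of every tested gene of the 10 markers and of the 16 companion lists, as points in red where the adjusted p (limma-trend) is under 0.05 and in grey otherwise, with a black bar at each list's median. The Kupffer cell list stands furthest to the right (median 1.26), and the endothelial lists lie between -0.03 and 0.39.

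Markers of other cells moved with the same groups. Of 13 Kupffer cell markers 10 rose and 0 fell, led by Cd5l and C1qc. At an unadjusted p under 0.05 and with edgeR or DESeq2 0 were lower, and the median log2 fold change was 1.26. Timd4 and Cd163 went the other way, with log2 fold changes of -0.22 and -0.50, and were not called (limma-trend adjusted p 0.843 and 0.542). The summed Kupffer level was 744, 472, 505, 576 and 825 CPM in the WD+alcohol libraries. The controls had 192, 215, 120 and 262 CPM, and all 13 genes had reads in every library. The summed level of the 10 sinusoidal markers was 288, 230, 256, 277 and 291 CPM, against 180, 213, 165 and 217 CPM in the controls. Both sums were highest in WD+alcohol 5 and 1 and lowest in control 3, and neither overlapped between the groups. The separation of the sinusoidal sum rested on Vcam1: without it, a check added after seeing the data, WD+alcohol 2 had 187 CPM, below control 2 (193 CPM) and control 4 (189 CPM). The summed level of the further sinusoidal genes overlapped, at 508 to 687 CPM against 510.4 to 659.9 CPM in the controls, as did that of the pan-endothelial genes, at 170.4 to 216 CPM against 142 to 197 CPM. Of 10 stellate cell markers 1 rose, the matrix proteoglycan gene Dcn (163 ± 29.9 against 92.95 ± 14.3 CPM; adjusted p = 0.00588, limma-trend), and 0 fell. At an unadjusted p under 0.05, 5 of the stellate markers were higher and 0 lower, and DESeq2 called 2 higher. All 10 had positive log2 fold changes, with a median of 0.37. Of 10 hepatocyte markers 3 fell (Serpina1c, Alb and Apoa1), with a summed level of 38023 to 52300 CPM against 54397 to 78322 CPM, although these calls depended on the libraries included (0 called without WD+alcohol 5 or control 2 or with no filter on low genes, and 1 without any of WD+alcohol 1 or 2 and controls 1, 3 or 4). Apoa1, the main HDL apolipoprotein, averaged 3436 ± 580 against 5019 ± 382 CPM, and Serpina1c belongs to a family of near-identical copies that may share reads. The part of these changes in the levels of the sinusoidal markers was not tested.

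The remaining lists gave 1 call, Pf4, a platelet chemokine also reported in macrophages, at 7.56 ± 2.38 against 2.23 ± 1.04 CPM (limma-trend adjusted p = 0.00842). The other tested platelet genes, Itga2b and Ppbp, had negative log2 fold changes. Lymphatic, cholangiocyte, smooth muscle, T and B cell and neutrophil markers gave 0 calls (limma-trend), with 0, 1, 0, 0 and 2 genes higher and 0, 1, 0, 0 and 0 lower at an unadjusted p under 0.05; edgeR called 0, and DESeq2 called 1 cholangiocyte and 1 neutrophil gene. S100a9 of neutrophils averaged 20.0 ± 3.05 against 12.3 ± 3.86 CPM (adjusted p = 0.0886, limma-trend) and Cd8a of T cells 4.08 ± 1.03 against 3.25 ± 0.80 CPM. Prox1 (142 ± 17.3 against 141 ± 35.03 CPM; lymphatic endothelium, but also hepatocytes), Sox9 (101 ± 10.2 against 104 ± 8.64 CPM) and Acta2 (966 ± 71.2 against 1005 ± 88.4 CPM) were the most abundant genes of their lists and were not called; the estimate of Sox9 was below 0, and above 0 (0.01) with all libraries rescaled to one total.

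**Figure D4:**
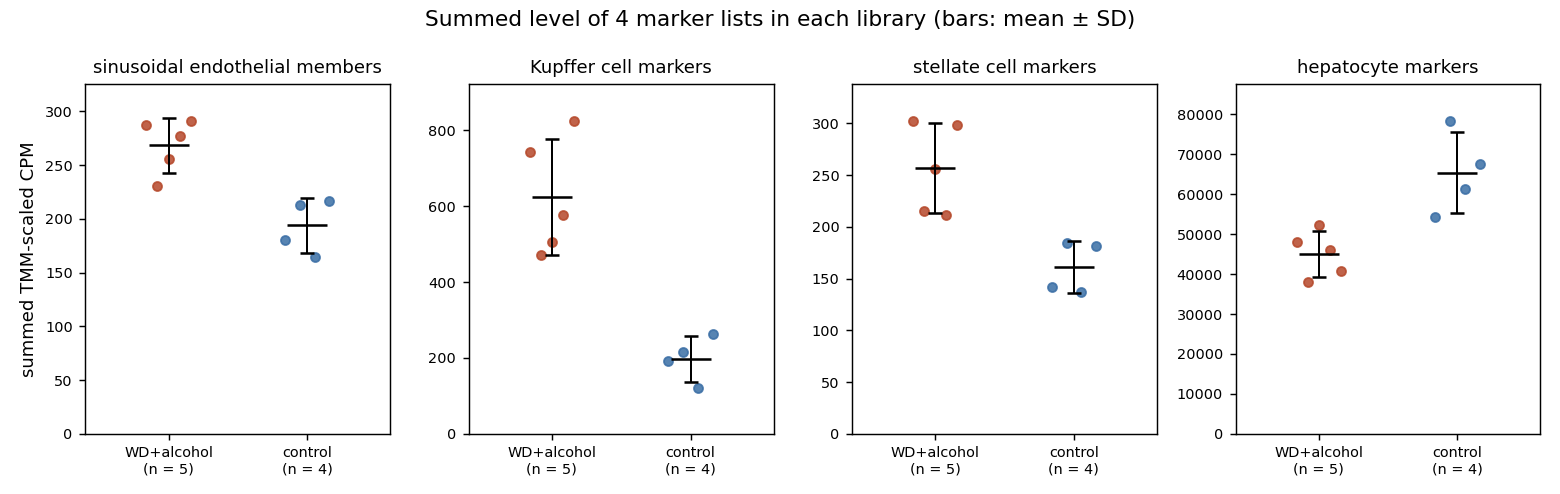
Summed TMM-scaled CPM of 4 marker lists in each library, on linear axes from 0, with the mean and SD as black bars (WD+alcohol n = 5, control n = 4). The sinusoidal, Kupffer and stellate sums are all higher in the 5 WD+alcohol libraries than in the 4 controls, and the hepatocyte sums are all lower.

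To ask whether single markers shifted against the sinusoidal signal of the same liver, 4 markers that other cells also express were expressed relative to the mean log2(CPM + 1) of Stab2, Clec4g, Oit3, Kdr and Lyve1. Vcam1 stood 1.20 ± 0.40 log2 units above that mean in WD+alcohol livers (SD, n = 5) and 0.61 ± 0.46 in controls (SD, n = 4). The difference of 0.58 ± 0.29 (SE) gave p = 0.0952 in a two-sided exact permutation test over the 126 arrangements of the libraries, the smallest possible p being 0.00794, and p = 0.381 adjusted over the 4 markers. WD+alcohol 3 was the exception, at 0.48 against 1.35 to 1.403 in the other 4. Icam1, Mrc1 and Stab1 differed by -0.09 ± 0.32, -0.13 ± 0.32 and -0.14 ± 0.22 log2 units (SE; exact permutation p = 0.730, 0.675 and 0.524, all adjusted p = 0.730). Each of these 3 differences was above 0 without control 3, the library with little Stab2 (0.14, 0.09 and 0.03), and that of Icam1 also without WD+alcohol 3 (0.04).

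Set against the mean of the 13 Kupffer cell markers instead, Vcam1 differed by -0.17 ± 0.21 log2 units (SE; exact permutation p = 0.460), so that the direction of its relative level depended on the base. Icam1 and Stab1 were lower against that base in WD+alcohol livers, by -0.85 ± 0.26 and -0.90 ± 0.20 log2 units (SE; exact permutation p = 0.00794 each, adjusted p = 0.0159), and Mrc1 by -0.89 ± 0.33 without passing (p = 0.0397, exact permutation; adjusted p = 0.0529). As the Kupffer markers themselves rose, these differences measure a smaller rise of the gene than of the base.

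**Figure D5:**
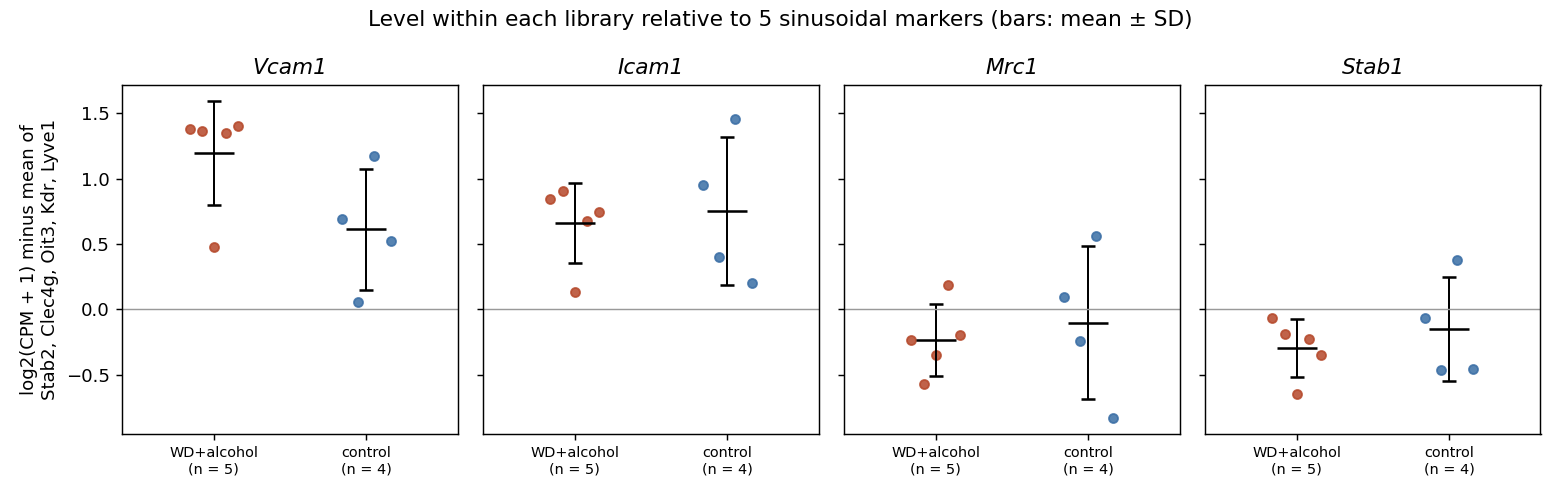
Log2(CPM + 1) of 4 markers minus the mean of Stab2, Clec4g, Oit3, Kdr and Lyve1 in the same library, with WD+alcohol libraries (n = 5) in red, controls (n = 4) in blue and the mean and SD as black bars. The groups overlap for all 4 genes, and for Vcam1 4 of the 5 WD+alcohol points lie above all controls.

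The markers differed in how widely they varied within a group. The coefficient of variation ran from 5.01% (Pecam1) to 29.8% (Lyve1) in the WD+alcohol libraries and from 7.83% (Stab1) to 82.9% (Lyve1) in the controls, with 56.1% for Stab2 among the controls. The variance of read numbers was 38.8 times what counting alone gives for Lyve1 and 20.6 times for Stab2 in the controls, but 0.452 times for Stab1 in the controls and 0.613 times for Pecam1 in the WD+alcohol group. These ratios hold differences between mice as well as technical ones, and with 4 or 5 libraries each is imprecise. The lowest value of the group fell in WD+alcohol 1 to 5 for 0, 5, 3, 1 and 1 of the 10 markers. In controls 1 to 4 it did so for 3, 1, 4 and 2 markers, thus spread over all controls. WD+alcohol 2 was below its group mean for 9 markers, and controls 1 and 3 each for 7. The markers are not independent of each other, and these counts were not tested against an even split. The mean log2 deviation of the 10 markers from their group means was -0.26 in WD+alcohol 2, -0.26 in control 3 and -0.16 in control 1.

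Among 10274 candidate genes whose mean reached 5 CPM, the likeness of a gene's profile to that of a marker was measured as the root-mean-square difference of centred log2(CPM + 1) values over the 9 libraries. The genes most like Vcam1 were Ctss (0.16), Ifi204 (0.19) and Lgals3bp (0.22). Ctss encodes the lysosomal protease cathepsin S of antigen-presenting cells, Ifi204 an interferon-inducible protein and Lgals3bp a secreted galectin-binding glycoprotein. As the likeness includes the difference between the groups, genes chosen by it differ between the groups in the way the marker does. Calls of these genes are therefore not results of their own. They are given only where the dependence on processing is described. Ctss had a mean of 117 ± 18.9 CPM in WD+alcohol livers, against 51.2 ± 4.03 CPM in controls. The genes most like Stab2 were Inhbe (0.26), Cda (0.31) and Ppp1r1b (0.34). Inhbe, an activin subunit made by hepatocytes, averaged 38.6 ± 8.97 against 15.1 ± 8.28 CPM, with its lowest value, 5.21 CPM, in control 3, as for Stab2. As the likeness covers all 9 libraries, this shared low value also follows from the choice and is not a result of its own. Scand1 and Acads were among the genes most like Clec4g (0.11 each). Scand1 averaged 30.1 ± 4.72 against 20.96 ± 3.16 CPM and Acads, a mitochondrial enzyme of short-chain fatty acid oxidation, 114 ± 15.6 against 86.4 ± 7.32 CPM. None of these genes belongs to the 10 sinusoidal markers.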

How the data were processed

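Liver RNA was made into 3′ mRNA libraries with the Collibri kit, per the labels' protocols. Per the submitters' processing notes, reads were handled with Trim Galore 0.6.0, cutadapt 1.18, STAR, HTSeq 0.11.0 and edgeR 3.28.1 in R 3.6.3, on build GRCm39 (mm39). The deposited values are a signal, CPM scaled by TMM by the authors. All positive values (100%, tolerance 1e-06) were whole multiples of what 1 read is worth in their library, so whole reads were recovered for depths and for count tests. The sources used here do not give the strand setting; 5 of the 10 markers (Stab1, Stab2, Clec4g, Vcam1 and Icam1) overlap a gene on the opposite strand in a GENCODE annotation of GRCm38, whose reads could be mixed with theirs.

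Libraries were grouped by title and each was taken as 1 mouse, as the series' design counts 5 and 4; the labels give no batch. The test was limma-trend in limma 3.58.1 under R 4.3.3, on log2 of CPM plus a pseudocount of 1, two-sided. It covered the 14759 genes whose mean reached 1 CPM, with Benjamini-Hochberg adjustment over all of them and a threshold of 0.05. Fold changes on this scale understate those of low genes. Precision is limited by depth: 0 reads would allow up to 0.455 to 0.809 CPM (3 reads; counting error only). No pair of libraries agreed within counting noise (chi-square per degree of freedom at least 5.82). The code was tested on simulated data.

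The markers and the 16 companion lists were chosen with earlier results of these data known, and no set test was run. Besides the markers, genes were named by rule: of each list its 2 called genes with the smallest p or, with none called, its most abundant one, plus the 3 nearest profiles of Vcam1, Stab2 and Clec4g, without clone-like gene names; 1 gene chosen by this rule is not reported here. Itga4, Itgb1, Itgb2, Flt1 and Vegfa were added for their role. Vwf, Clec1b, Dnase1l3, Ehd3, Plpp3, Maf, Aqp1, Cdh5, Timd4, Cd163, Alb, Itga2b and Ppbp were added after their values were seen. Alternatives were pseudocounts of 0.25 and 5, other filters and scalings, robust limma-trend, a replicate block, omission of each single library, and edgeR 4.0.16 and DESeq2 1.42.0 on the recovered reads. Figures used matplotlib 3.10.9.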

Additional observations from a re-analysis of the deposited data

Results flagged for a closer look

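In 9 of 100 group-wise checks, 1 library lay far from the others of its group (Dixon's criterion); chance alone gives this in about 1 group in 20. Pecam1 was flagged in both groups: WD+alcohol 2 had 44.0 CPM against 40.0 CPM in the next library, and control 4 had 39.6 CPM against 28.3 CPM in the next control. In the WD+alcohol group the variance of Pecam1 reads was 0.613 times what counting alone gives, so that flag rests on a spread within counting noise. Vcam1 relative to the sinusoidal markers was 0.48 log2 units in WD+alcohol 3, against 1.35 in the next library. Fcgr2b had 23.5 CPM in WD+alcohol 2, against 30.4 CPM in the next library, and Ptprb had 37.5 CPM in WD+alcohol 3, against 27.9 CPM. Among the controls, Prox1 had 193 CPM in control 4 against 132 CPM in the next library, and Acta2 had 874 CPM in control 2 against 1036 CPM. Acads had 75.4 CPM and Vegfa 57.2 CPM in control 3, against 89.6 and 76.4 CPM in the next controls.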

How the results depend on the processing

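Vcam1 was called under all 20 alternatives, with log2 fold changes from 0.93 to 1.19. Pecam1 or Stab2 joined it in 3, so that 2 markers were called after rescaling to a common total, and 1 to 2 when single libraries were left out. The number of genes differing was 338, 111 with the replicate block, 545 with DESeq2 and 201 to 387 when single libraries were left out. Replicate numbers did not pair the libraries (correlations of deviations -0.31 to -0.01, each WD+alcohol library being closer to a control of another number); the block fit leaves out WD+alcohol 5, and in it Vcam1 kept its call (0.96, adjusted p = 0.0407) while Fcgr2b, Itgal, Dcn, Pf4, Serpina1c and Apoa1 lost theirs (adjusted p 0.0856 to 0.482), as did Ifi204, Lgals3bp and Inhbe (0.0561 to 0.155), and 0 hepatocyte genes were called. Inhbe also lost its call with no filter, with robust limma-trend and in 5 of 9 fits without a single library (adjusted p 0.05004 to 0.154). Estimates near 0 changed sign after rescaling to a common total (Kdr 0.00224, Nrp2 0.0230, Sox9 0.0149, Itga4 0.0139, Itgb1 0.0326) and with quantile normalization (Itgb1 0.00448), and when single libraries were left out (Kdr -0.185 to 0.0955, Cd44 -0.0387 to 0.0866, Prox1 -0.0441 to 0.187). Relative to sinusoidal markers, leaving out single libraries gave 0.40 to 0.77 for Vcam1, -0.28 to 0.14 for Icam1, -0.376 to 0.0900 for Mrc1 and -0.249 to 0.0323 for Stab1. With the Kupffer base they were -0.17, -0.85, -0.89 and -0.90. The cause of these changes was not tested. Over the 46 genes chosen for naming and 919 alternative values, 851 kept sign and side of the threshold, 31 lost a call, 23 gained one and 14 changed sign. The 46 include the genes chosen by likeness.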
